A study of Homo sapiens with 16 samples.

Results

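The genes described here are 6 genes of the FGF19 and bile acid axis: the hormone FGF19, its receptor FGFR4, the co-receptor KLB, the bile acid sensor NR1H4 (the nuclear receptor FXR), and SLC51A and SLC51B, the subunits of the exporter that carries bile acids out of the enterocyte. They were named as a list of symbols, and all 6 were matched to the 54127 Ensembl gene identifiers of the count files. The list was selected on measured values: FGF19 was chosen because itraconazole moved it in opposite directions in the 2 lines, and several of the others were known to be barely expressed. The FGF19 changes are therefore given below as a description, with no test.

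FGF19 is a hormone that enterocytes of the ileum release when bile acids activate FXR. It reaches the liver in the portal blood, binds FGFR4 together with the co-receptor β-Klotho (the product of KLB), and represses CYP7A1, the rate-limiting enzyme of bile acid synthesis. FXR is known to induce FGF19 and both SLC51 subunits in the intestine, and FGF19 and FGFR4 are also studied as growth signals in liver and colorectal tumours.

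RNA was sequenced from HT55 and SW948, which are established human colorectal cancer cell lines, as 4 groups with 4 libraries in each. Each line received itraconazole at 5 µM, an antifungal that blocks sterol synthesis, or DMSO, in which it was dissolved. The RNA was collected on day 6. All groups were adherent cultures with foetal bovine serum and antibiotics, and the labels name no engineered allele. The comparison in the study asked what itraconazole does to the transcriptome of these lines. Each line stands for a single tumour, and the cultures hold no liver cells.

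Gene counts per library ran from 8269406 to 11110814. All 9 markers of colorectal epithelium were well expressed, with a summed level of 6923 to 11929 CPM (counts per 1000000 gene counts) over the 16 libraries. Of the 6 hepatocyte markers, 5 stayed under 1 CPM in every group, and the exception was CYP2E1 at 1.54 CPM in treated SW948. Of the 5 ileal enterocyte markers, SLC10A2, APOA4, APOC3 and GATA4 had no count in any library and FABP6 was expressed. Of the 6 blood and stromal markers found, 5 were under 1 CPM in every group, PTPRC and CD3E held 1 count at most in any group, and the summed level rose from a range of 2.23 to 3.97 CPM in SW948 DMSO to 9.60 to 12.0 CPM in SW948 itraconazole through COL1A1. Replicate 3 of treated HT55 stood apart, since its shift from the controls over all genes was 61.8% of the mean shift of the other treated HT55 libraries, against 83.8% to 110.3% for the other treated libraries. These are bulk libraries, so fewer cells of a type and less RNA per cell cannot be told apart. The part of these differences in the results was not tested.

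FGF19 (ENSG00000162344, chromosome 11, 69513006 to 69518790, minus strand, GRCh37) is a protein-coding gene, and no 2 of the 4 groups overlapped in its scaled level. The 4 HT55 DMSO libraries held 280, 292, 317 and 233 FGF19 counts, and the 4 HT55 itraconazole libraries held 28, 28, 63 and 25. Every treated library lay far below every control library. In SW948 the order was turned round: the DMSO libraries held 23, 19, 17 and 27 counts and the itraconazole libraries 95, 78, 85 and 86, again with no overlap. Scaled to library size, FGF19 went from 30.4 ± 2.47 to 3.93 ± 1.38 CPM in HT55 while in SW948 it went from 1.80 ± 0.249 to 10.03 ± 0.571 CPM (SD, n = 4 libraries). The difference between treated and control libraries was -2.92 in HT55 and 2.43 in SW948 on the log2 scale, with standard errors of 0.188 and 0.155. The HT55 response minus the SW948 response was -5.38 ± 0.245 (SE, log2).

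**Figure D1:**
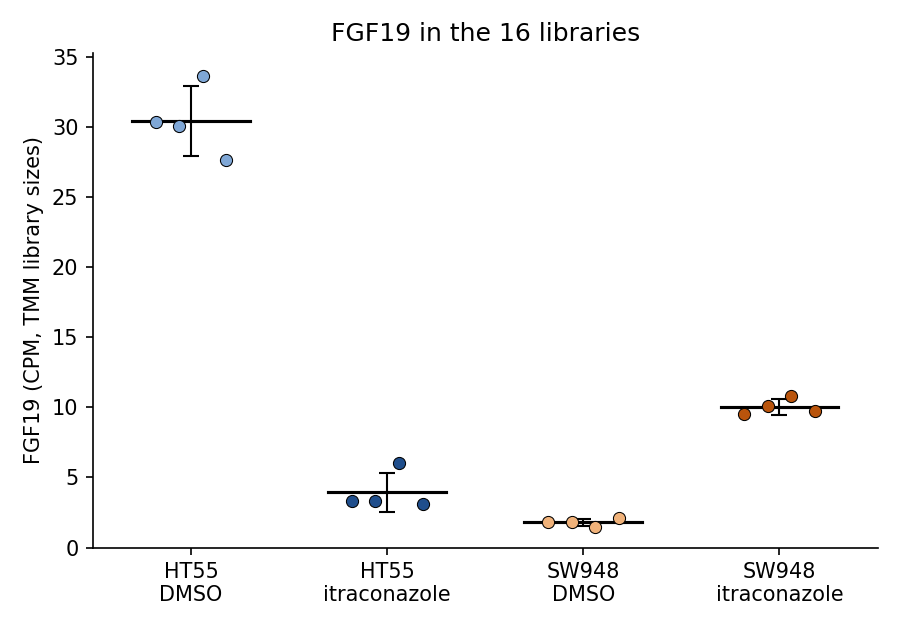
FGF19 level in CPM (vertical axis, TMM-scaled library sizes) in each of the 16 libraries, by line and treatment. Points are libraries, horizontal lines are group means and error bars are SD (n = 4). The HT55 DMSO libraries lie between 27.6 and 33.6 CPM and the SW948 DMSO libraries between 1.48 and 2.08 CPM, and no 2 groups overlap.

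Ordered by level, FGF19 was highest in HT55 DMSO, followed by SW948 itraconazole, HT55 itraconazole and SW948 DMSO. The neighbours in this order differed by 3.03-fold, 2.55-fold and 2.18-fold in mean CPM, and in each case the lowest library of the higher group lay above the highest library of the lower group. Untreated HT55 exceeded untreated SW948 by 16.7-fold, and treated HT55 was below treated SW948 by 1.32 on the log2 scale (a fitted difference of -1.32). Per kilobase of exon, FGF19 held 16.7 RPKM in HT55 DMSO, 2.16 in HT55 itraconazole, 0.989 in SW948 DMSO and 5.51 in SW948 itraconazole. Replicate 3 of treated HT55 had 6.00 CPM against 3.11 to 3.33 in the other 3 libraries. Without that library the treated HT55 mean was 3.25 ± 0.121 CPM and the HT55 difference was -3.21.

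Scaling with plain library totals in place of TMM (a scaling that centres most genes on no change) left FGF19 at -3.08 in HT55 and 2.10 in SW948 on the log2 scale. That change of scaling shifted the median of all genes by -0.17 in HT55 and by -0.33 in SW948. The background of these contrasts was broad. In HT55, 54% of the 12133 genes tested passed an adjusted p of 0.05 by edgeR's quasi-likelihood test (27.5% rose and 26.5% fell), and in SW948 80.2% of 12505 passed (38.9% rose and 41.3% fell). With plain totals the split of calls was 2279 up and 4710 down in HT55 against 3340 and 3213 with TMM, and 3145 up and 6832 down in SW948 against 4865 and 5165. Of the members, FGFR4 alone is given a test across all genes for the drug effect, and against this background its calls say nothing of the list. Of the 5274 genes called in both lines, 762 moved in opposite directions.

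The chromosome 11 region around FGF19 holds CCND1 (cyclin D1) and is known to be amplified in some cancers. Within 1 megabase of FGF19 lay 17 protein-coding genes, of which 13 were tested in both lines. In HT55, 4 of the 13 rose and 3 fell (background 54% called), with log2 fold changes from -0.90 to 1.28. In SW948, 6 rose and 5 fell (background 80.2% called), with log2 fold changes from -2.20 to 0.87. Each neighbour thus changed less than FGF19 in each line. The nearest, LTO1 at 22.8 kb, fell in both lines (-0.65 for HT55 and -1.44 for SW948, edgeR adjusted p = 0.0172 and 2.43e-08). The HT55 libraries of LTO1 overlapped, and its fall there was not called without replicate 4 of itraconazole (edgeR adjusted p = 0.0514). CCND1, at 43.8 kb, had a fold change of 0.20 in HT55 (edgeR adjusted p = 0.283) and rose by 0.46 in SW948 (edgeR adjusted p = 3.17e-05, and 0.0646 with plain library totals).

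On the other side of FGF19 lie 2 further FGF genes. FGF4 had no count in any library, and FGF3, 106 kb away, held 10 counts in HT55 DMSO, 2 in HT55 itraconazole and none in SW948. ANO1, a chloride channel gene, rose in HT55 (1.28, edgeR adjusted p = 0.0117, with overlapping libraries) and was at -0.22 in SW948 (edgeR adjusted p = 0.100). In untreated cells FGF19 was higher in HT55, while 10 of the 13 tested neighbours were lower there than in SW948 and 2 were higher, CCND1 (0.50) and SHANK2 (1.46). In this comparison of untreated lines 75.9% of 13249 genes were called.

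**Figure D2:**
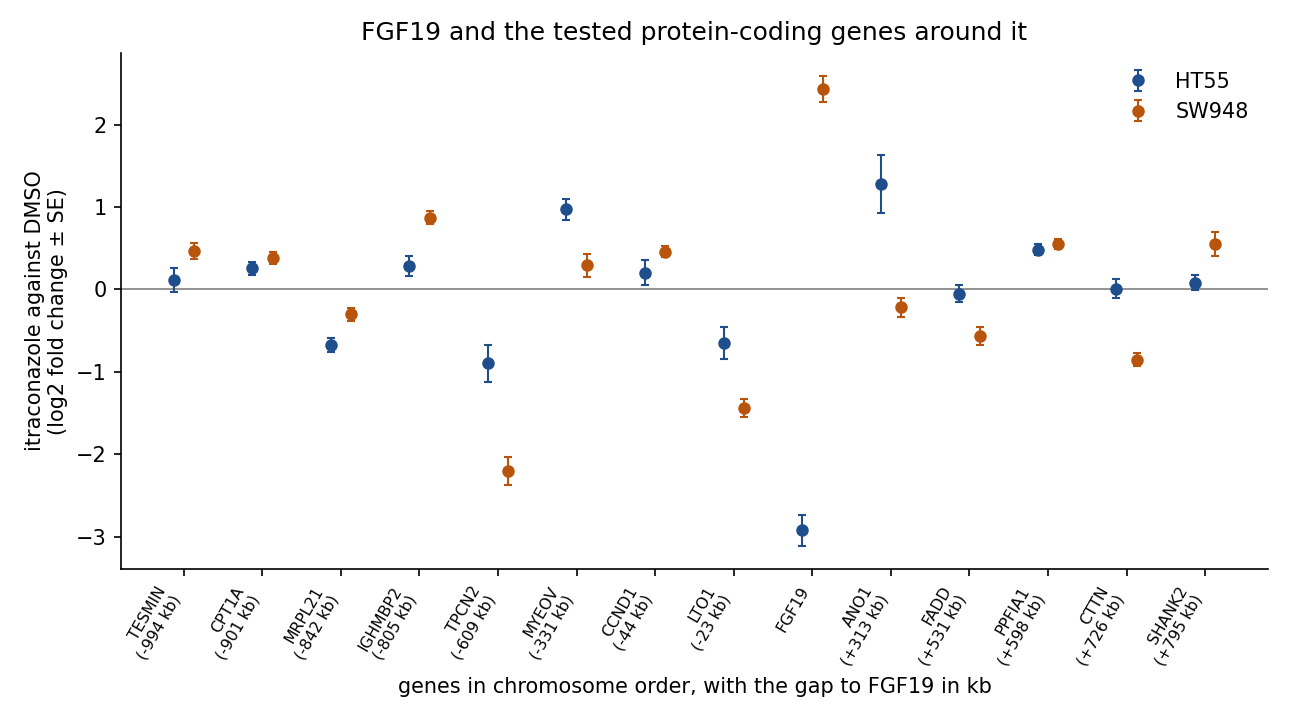
Log2 fold change ± SE (vertical axis, itraconazole against DMSO) of FGF19 and of the 13 tested protein-coding genes within 1 megabase, in chromosome order, with the gap to FGF19 in kb under each name. Blue points are HT55 and orange points are SW948. FGF19 lies at -2.92 and 2.43, outside the range of its neighbours in both lines.

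The genes whose log2 CPM followed that of FGF19 most closely over the 16 libraries were ZNF227 (Pearson r = 0.956), HSPA14 (0.949), EDN1 (0.938), PPRC1 (0.938) and ODF2 (0.935), out of 12261 genes compared. After each line's mean was taken off they were KIF22 (0.979), UTP18 (0.961), IGF2 (0.956), TMPO (0.954) and SYMPK (0.951). The 16 points share line, treatment and scaling, so the coefficients are descriptions. Most of these genes moved far less than FGF19: ZNF227 fell by 0.53 in HT55 and rose by 0.54 in SW948 on the log2 scale. IGF2, a growth factor gene, was the widest in range, with 24.4 CPM in HT55 DMSO, 8.03 in HT55 itraconazole, 0.144 in SW948 DMSO and 1.14 in SW948 itraconazole.

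FGFR4 (ENSG00000160867, chromosome 5, 176513906 to 176525145, plus strand) encodes the tyrosine kinase receptor that FGF19 uses in the liver, and it rose in both lines. The HT55 DMSO libraries held 1159, 1206, 1233 and 1024 FGFR4 counts and the HT55 itraconazole libraries 1923, 2006, 2099 and 1842. The mean went from 126 ± 3.95 to 223 ± 16.3 CPM (SD, n = 4), with no overlap. In SW948 the DMSO libraries held 749, 634, 829 and 828 counts and the itraconazole libraries 967, 742, 753 and 780. After scaling, the SW948 means were 64.0 ± 5.63 and 94.1 ± 4.02 CPM, and these groups did not overlap either. The log2 fold change was 0.83 ± 0.066 in HT55 (SE, edgeR adjusted p = 9.78e-06) and 0.52 ± 0.071 in SW948 (SE, edgeR adjusted p = 1.05e-05). With plain library totals, which shifted all SW948 genes down, the SW948 value was 0.19 (edgeR adjusted p = 0.0343).

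The FGFR4 response was larger in HT55 by 0.27 ± 0.100 on the log2 scale (SE, edgeR adjusted p = 0.0261, a test in which 53.9% of 13249 genes were called). This difference was no longer called without a filter on low counts (adjusted p = 0.0804), without replicate 3 of SW948 DMSO (0.0678) or without replicate 4 of SW948 itraconazole (0.0526), all by edgeR. FGFR4 was also higher in HT55 than in SW948, by 0.97 in DMSO (edgeR adjusted p = 2.17e-10) and by 1.25 in itraconazole (edgeR adjusted p = 3.63e-12). In treated cells 80.9% of genes differed between the lines. The order of levels was HT55 itraconazole, HT55 DMSO, SW948 itraconazole and SW948 DMSO, and no neighbours in it overlapped.

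Per kilobase of exon, FGFR4 was at 26.1 RPKM in HT55 DMSO and 46.5 in HT55 itraconazole. FGFR3, a related receptor, went from 24.8 to 19.8 RPKM in HT55. FGFR1 and FGFR2 were under 0.05 RPKM in every group. In SW948, FGFR4 went from 13.3 to 19.6 RPKM and FGFR3 from 4.71 to 4.83. FGFRL1, a receptor without a kinase, was at 51.9 and 48.2 RPKM in HT55 and at 10.98 and 14.95 in SW948. Of the 7 endocrine FGF ligands, receptors and co-receptors that are not members, 3 were tested in HT55 (background 54% called). Of these, FGFR3 fell by 0.33 (edgeR adjusted p = 0.0139, and 0.0527 without replicate 3 of DMSO) and none rose. Without replicate 3 of HT55 itraconazole 2 were called there. In SW948, 2 were tested (background 80.2% called), FGFRL1 rose by 0.42, and FGFR3 stood at 0.01 (edgeR adjusted p = 0.943). With plain library totals FGFRL1 in SW948 was not called (0.09, adjusted p = 0.451) and FGFR3 turned to -0.32 (adjusted p = 0.0265).

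KLB (ENSG00000134962, chromosome 4, 39408550 to 39453153, plus strand), which encodes the co-receptor β-Klotho, was at the limit of detection. The HT55 libraries held 1, 3, 1 and 4 KLB counts in DMSO and 5, 2, 4 and 5 in itraconazole. The SW948 libraries held 1, 1, 1 and 0 in DMSO and 0, 1, 1 and 0 in itraconazole. The treated and control libraries overlapped in both lines. Over the group, 9 counts became 16 in HT55 (two-sided exact permutation test of CPM, p = 0.257, adjusted p = 0.667 over 7 such tests) and 3 became 2 in SW948 (exact p = 0.914). With 4 libraries against 4, no p under 0.0286 can be reached. No drug difference was detectable at this depth, where 3 counts over a group stand for 0.0631 to 0.0870 CPM. Between the lines, the KLB ratio of HT55 to SW948 was 3.87 in DMSO (95% counting interval 0.967 to 22.2, 9 against 3 counts). In itraconazole it was 7.77 (1.83 to 69.7, 16 against 2 counts), and the scaled levels of the lines did not overlap. In DMSO the lowest HT55 and the highest SW948 library held 1 KLB count each. Their scaled levels (0.106 and 0.0946 CPM) differed only through library size.

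The related co-receptor gene KL, singled out after its values were seen, encodes the partner of FGF23. It held 343 counts in HT55 DMSO and none in SW948 DMSO, a ratio of 148 when 3 counts over the SW948 group are taken as the floor. In itraconazole the counts were 411 and 1, a ratio of 399 with a 95% counting interval of 71.3 to 15812. In HT55 itraconazole changed KL by 0.28 on the log2 scale (edgeR adjusted p = 0.327). The other endocrine FGF ligands were at the limit: FGF21 held 21, 11, 15 and 3 counts and FGF23 held 0, 0, 0 and 2 counts in HT55 DMSO, HT55 itraconazole, SW948 DMSO and SW948 itraconazole.

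NR1H4 (ENSG00000012504, chromosome 12, 100867486 to 100958192, plus strand), the FXR gene, was almost silent. Of the HT55 libraries, the 4 DMSO libraries had no NR1H4 count and the itraconazole libraries had 0, 1, 0 and 0. The SW948 libraries had 0, 3, 5 and 3 counts in DMSO and 7, 1, 1 and 4 in itraconazole. The SW948 groups overlapped, with 11 and 13 counts in all (two-sided exact permutation test, p = 0.743). In DMSO SW948 held 11 NR1H4 counts and HT55 none, a ratio of 2.84 when 3 counts over the HT55 group are taken as the floor. The libraries of the lines overlapped there, since 1 SW948 DMSO library also had 0 counts. In itraconazole the ratio of SW948 to HT55 was 13.4 with a counting interval of 2.01 to 569, from 13 and 1 counts.

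Other nuclear receptors of bile acid sensing ranged from near silent, with 2 counts at most in any group for NR1I3 and RXRG, to well expressed. RXRA, the partner with which FXR forms a dimer, rose by 0.77 with the drug in HT55 and by 0.66 with it in SW948 (edgeR adjusted p = 8.80e-06 and 1.32e-06). NR1I2, the xenobiotic receptor PXR, rose from 5.59 to 15.0 CPM in HT55 and from 7.96 to 26.0 in SW948. VDR, the vitamin D receptor, which also binds a secondary bile acid, rose by 0.31 in HT55 but in SW948 it fell by 1.80 (edgeR adjusted p = 0.00354 and 1.17e-08). The HT55 rise was not called with plain library totals (0.15, adjusted p = 0.136). NR5A2, the receptor LRH-1, fell from 6.69 to 2.34 CPM in SW948. In HT55 NR5A2 was below the filter on low counts and had no test. It was higher there with the drug, at 0.430 CPM in DMSO and 2.04 in itraconazole (16 and 73 counts), with no overlap.

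HNF4A fell by 0.27 in SW948 and was at 0.12 in HT55 (edgeR adjusted p = 0.117). MALRD1, a gene linked to FGF19 output in enterocytes, held 69 counts in SW948 DMSO and none in SW948 itraconazole. The ratio of DMSO to itraconazole was 16.7 when 3 counts over the treated group are taken as the floor, while HT55 held 26 and 23 MALRD1 counts. Of the 12 genes of bile acid sensing that were found, 5 were tested in HT55, with 3 up and none down (background 54% called), and 7 in SW948, with 2 up and 4 down (80.2%). With plain library totals the counts were 2 up and 1 down in HT55 and 2 up and 5 down in SW948. MALRD1, among those that fell in SW948, passed the filter on low counts there only through the DMSO libraries, so its call is a description. NR0B2, the FXR target SHP, was singled out after its values were seen and held 30 counts in HT55 DMSO and 7 in HT55 itraconazole (DMSO over itraconazole 4.13, counting interval 1.78 to 11.1). In SW948 NR0B2 had 8 and no counts. GPBAR1, the membrane bile acid receptor, had 3 counts at most in any group.

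SLC51A and SLC51B encode the α and β subunits of the organic solute transporter, which works only as the pair. SLC51B (ENSG00000186198, chromosome 15, 65337725 to 65345735, plus strand, GRCh37) was higher in treated than in untreated HT55 and near absent in SW948. The HT55 DMSO libraries held 13, 7, 11 and 9 SLC51B counts and the HT55 itraconazole libraries 38, 55, 63 and 59. Every treated library lay above every control, and the mean went from 1.09 ± 0.285 to 6.08 ± 1.18 CPM (SD, n = 4). The log2 fold change was 2.46 ± 0.243 (SE). SLC51B passed the filter on low counts only through HT55, and in HT55 only through the treated libraries, so its values are a description without a test. In SW948 the counts were 0, 1, 2 and 0 in DMSO and 0, 1, 0 and 0 in itraconazole, so that no change could be measured there (3 against 1 count, two-sided exact permutation test, p = 0.714).

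Between the lines, SLC51B was 17.2-fold higher in HT55 than in SW948 in DMSO (counting interval 5.48 to 87.0) and 209-fold higher in itraconazole (37.1 to 8289). With 4 SW948 counts in all, the drug responses of the lines could not be compared. In HT55 DMSO, SLC51B stood at 1.18 RPKM and SLC51A at 0.0214 RPKM, and in HT55 itraconazole they stood at 6.58 and 0.0555. The 3′ end of SLC51B overlaps RASL12 on the opposite strand, and the sources do not state whether counting used strand. RASL12 held 9 and 47 counts in HT55 and 34 and 50 in SW948, DMSO first. Its part in the SLC51B counts was not tested.

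SLC51A (ENSG00000163959, chromosome 3, 195938358 to 195970049, plus strand) was barely counted in HT55 and higher in untreated SW948. The HT55 libraries held 0, 0, 2 and 2 SLC51A counts in DMSO and 2, 2, 6 and 1 in itraconazole. The SW948 libraries held 12, 6, 20 and 9 counts in DMSO and 9, 1, 5 and 4 in itraconazole. Treated and control libraries overlapped in both lines, with 4 and 11 counts in HT55 (exact permutation p = 0.286) and 47 and 19 in SW948 (exact permutation p = 0.0857, adjusted p = 0.600 over 7 tests). In DMSO SLC51A was 9.10-fold higher in SW948 than in HT55 (counting interval 3.33 to 34.8), and in itraconazole the ratio was 1.78 (0.804 to 4.13). The SLC51A gene overlaps PCYT1A on the opposite strand, which held 1863 and 1947 counts in HT55 and 5234 and 2194 in SW948, DMSO first. Whether PCYT1A reads entered the SLC51A counts was not tested. In untreated cells, the line with SLC51B thus had little SLC51A, and the line with more SLC51A had almost no SLC51B.

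**Figure D3:**
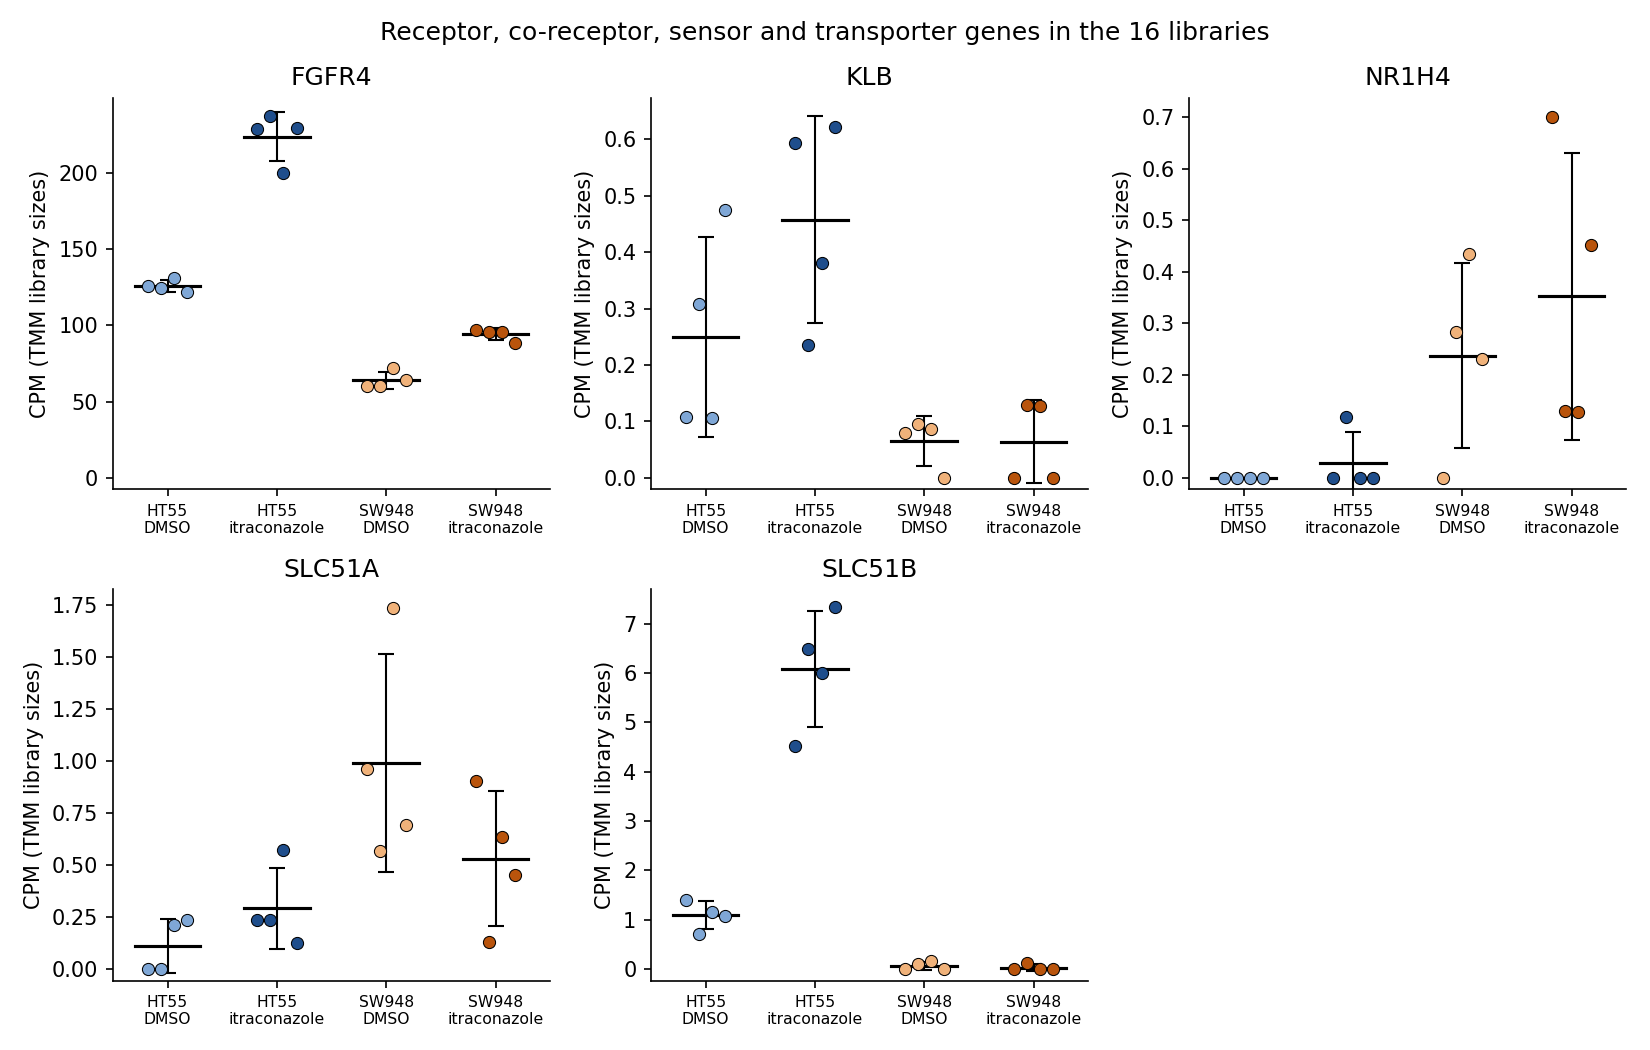
Levels of FGFR4, KLB, NR1H4, SLC51A and SLC51B in CPM (vertical axes, each with its own range, TMM-scaled library sizes) in the 16 libraries. Points are libraries, horizontal lines are means and error bars are SD (n = 4). FGFR4 is at 60 CPM or above everywhere, SLC51B reaches 4.51 to 7.33 CPM in treated HT55 libraries and is at 0.174 CPM at most in SW948, and KLB, NR1H4 and SLC51A lie under 2 CPM throughout.

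The promoters of the 2 subunits are shown because the subunits differed between the untreated lines in opposite directions. Both are the 250 bases before the transcription start in RefSeq, on build GRCh38.p14 and the plus strand, at chr15:65045137-65045386 for SLC51B and chr3:196216284-196216533 for SLC51A. Capitals mark matches on either strand to AGGTCA, the hexamer that FXR and related nuclear receptors bind.
SLC51B: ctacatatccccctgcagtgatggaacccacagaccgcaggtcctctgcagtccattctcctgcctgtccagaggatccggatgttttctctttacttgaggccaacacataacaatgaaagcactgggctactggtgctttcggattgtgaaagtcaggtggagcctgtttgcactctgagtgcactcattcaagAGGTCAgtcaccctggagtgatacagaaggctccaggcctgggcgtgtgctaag
SLC51A: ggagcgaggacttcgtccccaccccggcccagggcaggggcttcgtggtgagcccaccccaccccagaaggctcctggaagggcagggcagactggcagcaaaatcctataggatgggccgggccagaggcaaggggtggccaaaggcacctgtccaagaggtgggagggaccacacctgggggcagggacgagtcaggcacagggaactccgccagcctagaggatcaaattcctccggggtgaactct
The SLC51B promoter holds 1 match, which begins 54 bases before the start, and the SLC51A window holds none. In all, 5 of the 6 members were matched in the promoter table, with 6 promoters, and 2 of these held the hexamer, the other being that of NR1H4. Of the 35116 promoters of the same length, 12.1% hold it, so a match is a description, and binding was not tested.

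The 16 genes of FGF receptor signalling examined, adaptors and feedback genes, were all tested in both lines. Of 16 adaptors and feedback genes, HT55 had 5 that rose and 2 that fell (background 54% called), and SW948 had 9 that rose and 6 that fell (80.2%). With plain library totals these counts turned round, to 3 that rose and 5 that fell in HT55 and 3 and 7 in SW948. Their median log2 fold change was 0.11 in HT55 and 0.20 in SW948, against -0.02 for all genes tested in each line, and with plain library totals it was -0.07 and -0.13. Of the adaptors, GRB2 and GAB1 rose in both lines under either scaling, GAB1 with 0.66 for HT55 and 1.05 for SW948 (edgeR adjusted p = 0.00127 and 1.39e-07). FRS2 and SOS1 also rose in both lines, but with plain library totals FRS2 in SW948 (0.08, edgeR adjusted p = 0.337) and SOS1 in HT55 (0.09, 0.225) were not called and SOS1 turned to -0.17 in SW948 (0.0558). The adaptor SHC1 was at -0.34 in SW948, a fall (edgeR adjusted p = 0.00043), and at -0.10 in HT55 (edgeR adjusted p = 0.217). ETV5, a transcription factor that ERK signalling induces, fell by 1.28 in HT55 cells and by 0.75 in SW948 cells (edgeR adjusted p = 1.38e-05 and 2.38e-07), while its relative ETV4 rose by 0.25 and 0.46, called in neither line with plain library totals. PTPN11 (SHP2) rose by 0.75 in SW948 and stood at 0.13 in HT55 (edgeR adjusted p = 0.107).

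The feedback inhibitor SPRED1 fell by 1.03 in SW948 and stood at -0.09 in HT55 (edgeR adjusted p = 0.253). IL17RD, a membrane inhibitor of FGF signalling, fell by 0.65 in HT55 and rose by 0.35 in the SW948 libraries (edgeR adjusted p = 0.00307 for each line), and the SW948 rise was not called with plain library totals (0.02, adjusted p = 0.867). Among the 16 other FGF genes, including the binding protein gene FGFBP1, 3 were tested in HT55 and 2 in SW948. All of these were called, beside 54% and 80.2% of all genes. FGF20 passed the filter on low counts in both lines only through the DMSO libraries, so its calls are a description. In SW948, 4 of the 16 were called without replicate 2 of DMSO or without replicate 4 of itraconazole, where more than 2 passed the filter on low counts. FGF18 fell from 10.9 to 3.54 CPM in HT55, and FGF20 fell in both lines, by 1.24 in HT55 and 2.43 in SW948. In HT55 the FGF20 libraries overlapped, and the fall was not called without replicate 3 of DMSO or without replicate 1 or 4 of itraconazole (edgeR adjusted p up to 0.0763). FGFBP1, whose product releases FGFs from the matrix, rose in both lines, from 15.6 to 28.0 CPM in HT55 and from 3.001 to 28.5 CPM in SW948. Its HT55 libraries overlapped, with up to 17.5 CPM in DMSO and from 16.9 CPM in itraconazole.

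Of the 12 bile acid transport genes that are not members, 1 rose and 3 fell among 6 tested in HT55 (background 54% called). None rose and 5 fell among 7 tested in SW948, or 71.4%, near the 80.2% of all genes. ABCB4 and SLCO1A2 in SW948 and SLCO1B3 in HT55 passed the filter on low counts only through the DMSO libraries. Their calls there are a description. Without replicate 4 of HT55 DMSO, 2 in place of 4 were called in HT55. SLCO1B3, an uptake transporter, fell from 36.9 to 6.36 CPM in SW948 and from 1.97 to 0.909 CPM in HT55, where the call was lost without replicate 3 or 4 of DMSO (edgeR adjusted p = 0.0544 and 0.0526). ABCC3, a basolateral exporter, fell by 1.11 in SW948 (edgeR adjusted p = 1.18e-08). ABCC4 fell by 0.74 in HT55 and stood at 0.13 in SW948 (edgeR adjusted p = 0.113). SLC10A2, the ileal uptake transporter, and SLC10A1 had no count, and ABCB4 fell from 1.96 to 0.713 CPM in SW948.

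FABP6, the ileal bile acid binding protein and an FXR target, was named after its values were seen. It stood at 6.85, 5.16, 6.22 and 7.37 CPM in HT55 DMSO, HT55 itraconazole, SW948 DMSO and SW948 itraconazole, and the drug response was -0.41 in HT55 and 0.22 in SW948 on the log2 scale (edgeR adjusted p = 0.0587 and 0.225). Of the 10 known FXR target genes that are not members, SDC1 rose among 3 tested in HT55 and none fell (background 54% called). In SW948, 1 rose (SDC1) and 2 fell (ABCB4 and PLTP) among 4 tested (background 80.2% called). ABCB4 passed the filter on low counts there only through the DMSO libraries, so its call is a description. The median was 0.16 in HT55 and -0.08 in SW948, and -0.01 and -0.41 with plain library totals. Without replicate 1 or 3 of HT55 itraconazole, 2 were called in HT55. SDC1, the syndecan-1 gene, rose by 0.56 and 0.82 (edgeR adjusted p = 3.18e-05 and 1.73e-06).

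Genes of bile acid synthesis ranged from silent to well expressed, with HSD17B4, a peroxisomal enzyme, at 151 to 278 CPM. CYP7A1, CYP8B1 and CYP7B1 had no count in any library. CYP27A1, which starts the alternative pathway, rose from 1.13 to 2.45 CPM in HT55, where the libraries overlapped, and from 5.35 to 16.1 CPM in SW948. CYP39A1, an oxysterol hydroxylase, fell from 16.5 to 7.33 CPM in HT55 and from 6.605 to 0.544 in SW948. ACOX2, a peroxisomal oxidase of side-chain shortening, fell from 34.8 to 9.24 CPM in HT55 and from 3.92 to 0.295 in SW948. AMACR fell by 1.43 in SW948 and stood at 0.43 in HT55 (edgeR adjusted p = 0.115). Of the 21 genes of synthesis and conjugation, 2 rose and 2 fell among 9 tested in HT55, and 2 rose and 6 fell among 9 tested in SW948. These are 44.4% and 88.9% called, beside 54% and 80.2% of all genes. ACOX2 and CYP39A1 passed the filter on low counts in SW948 only through the DMSO libraries. CYP27A1 passed it in HT55 only through the treated libraries. Their calls there are a description.

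Over the 86 genes of these lists other than the 6 members, 53.5% of the 43 tested in HT55 and 86.7% of the 45 tested in SW948 were called, close to the background of each line. With plain library totals the shares were 62.8% and 80.0%. Leaving out 1 library at a time, 20 to 31 of them were called in HT55 and 35 to 39 in SW948. These counts include genes that passed the filter on low counts only through 1 group. Of the 20 called in both lines, 17 moved the same way and 3 the opposite way, namely IL17RD, VDR and ATP8B1. Over all genes, 762 of the 5274 called in both lines moved in opposite directions, a similar share. FGF19 had the largest difference between the lines among the 42 genes tested in both, and it was chosen for that difference.

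**Figure D4:**
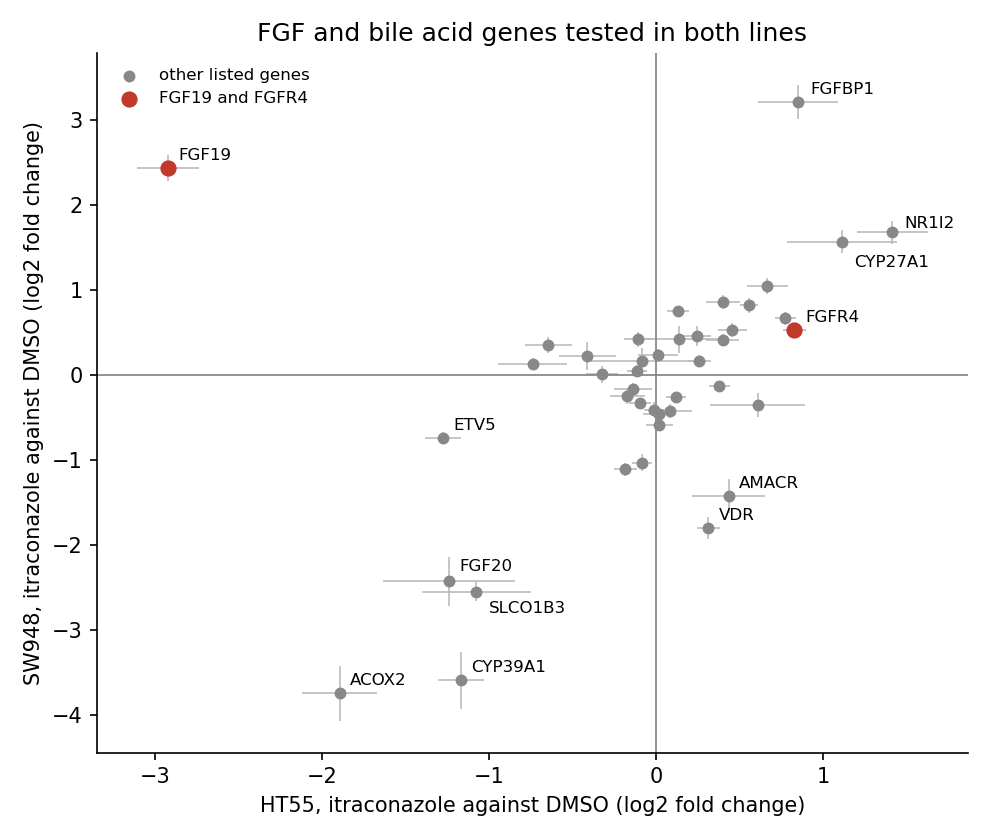
Log2 fold changes (itraconazole against DMSO) of the 42 genes of the FGF and bile acid lists that were tested in both lines, HT55 on the horizontal and SW948 on the vertical axis, with bars of 1 SE. FGF19 and FGFR4 are red. FGF19 lies at -2.92 and 2.43, FGFR4 at 0.83 and 0.52, and FGFBP1 at 0.85 and 3.21.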

How the data were processed

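RNA was measured in 16 libraries of the colorectal cancer cell lines HT55 and SW948. Per the study's methods and labels, RNA was isolated with a Qiagen kit, TruSeq libraries were prepared from biological quadruplicates, and the authors ran them as single-end reads of 50 bp. The submitters' processing notes name TopHat, HTSeq, DESeq and the build hg19, with no versions and no roles. The release of the gene annotation and the strand setting of the counting are not given in the sources used here. The deposited files hold raw read counts per Ensembl gene, and the authors did not normalise them. The last 5 rows of each file, which name no gene, were left out of library sizes and tests. Reads with more than 1 alignment, in these rows, were 22.0% to 27.9% of all reads listed, and reads in no gene or in several genes were 5.02% to 6.29%. No 2 libraries were identical.

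Groups came from the line and treatment labels. Symbols, coordinates and exon lengths came from GENCODE v44 mapped to GRCh37. Differences were tested with edgeR 4.0.16 (R 4.3.3) by quasi-likelihood, using TMM scaling, the filterByExpr filter and Benjamini-Hochberg adjustment over all genes tested. Each line's drug effect was fitted on its 8 libraries. The interaction and the comparisons of the lines were fitted on all 16. A gene was called at an adjusted p under 0.05. Each standard error is the log2 difference over the root of its F value. Group means in CPM (counts per 1000000 gene counts) and RPKM (CPM per kilobase of exon) used the TMM-scaled library sizes of the 16-library fit. Members below the filter went through an exact permutation test, two-sided, of CPM from plain library totals (scipy 1.17.1). Pooled ratios carry 95% exact binomial counting intervals. These intervals cover counting error only, since the reads carried no molecular identifiers. A group without a count was set to a floor of 3 counts over the group. Ratios to this floor carry no interval and leave out the counting error of the other group. The scripts were tested on simulated counts.

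The genes and lists were chosen with earlier results of these data known. The genes named were all 6 members and, from each list, up to 6 genes called in at least 1 line with at least 1 CPM in 1 group, the largest changes first. Named as well were the protein-coding genes within 1 megabase of FGF19 and the 5 genes closest to it by Pearson correlation of log2 CPM (prior count 2), with and without each line's mean. Alternatives were DESeq2 1.42.0 with its Wald test, its size factors in edgeR, plain library totals, no filter on low counts, the replicate number as a block, 1 fit on all 16 libraries, and leaving out each library in turn. List counts without each library or with plain library totals, both without the members, and TMM library sizes for the members below the filter, were added after seeing the data. The filter on low counts was run anew without each library, so the number of genes tested could change. S1PR2 and PECAM1 were not analysed here.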

Additional observations from a re-analysis of the deposited data

Results flagged for a closer look

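Replicate 3 of treated HT55 stood apart for FGF19: the gap to the nearest library was 0.924 of the range of its group. For FGFR4, replicate 4 of treated SW948 stood apart as the lowest library, with a gap of 0.869. Among other named genes such gaps were 0.879 for VDR and 0.835 for ABCC4, both in replicate 1 of treated SW948, 0.963 for CYP27A1 in replicate 2 of HT55 DMSO and 0.891 for SDC1 in replicate 3 of SW948 DMSO. They were 0.854 for CTTN in replicate 1 of HT55 DMSO, 0.868 for ZNF227 in replicate 2 of SW948 DMSO and 0.837 for SYMPK in replicate 4 of treated HT55. Of 204 groups examined, 9 were past Dixon's 95% critical value for 4 samples, and chance alone gives about 1 in 20, or 10.2.

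The drug responses of the lines differed for the following genes, given as the HT55 response minus the SW948 response on the log2 scale. FGF19, which was chosen for this difference, and the genes picked for likeness to it are given without a test. The edgeR adjusted p was under 0.05 for every other gene listed. In this comparison 53.9% of the 13249 genes tested were called. FGF19 stood at -5.38 and FGFR4 at 0.27. Among FGF receptors, adaptors and feedback genes the values were -0.55 for FGFRL1, -0.36 for FGFR3, -0.56 for ETV5, -0.41 for GAB1, 0.92 for SPRED1, -0.64 for PTPN11, -1.02 for IL17RD and 0.94 for SPRY1. FGFBP1 stood at -2.39. Among nuclear receptors and transporters they were 2.09 for VDR, 0.35 for HNF4A, 1.45 for SLCO1B3, 0.90 for ABCC3 and -0.90 for ABCC4. NR5A2 and MALRD1, below the filter on low counts in HT55, stood at 3.68 and 6.70. MALRD1 passed the filter of the 16-library fit only through SW948 DMSO, so its value is a description. Among genes of bile acid synthesis and FXR targets they were 1.81 for ACOX2, 2.39 for CYP39A1, 1.84 for AMACR, -0.48 for SLC27A2, 0.46 for HSD17B4 and -0.29 for SDC1.

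Of the genes around FGF19, the difference was -0.40 for MRPL21, -0.62 for IGHMBP2, 1.28 for TPCN2, 0.65 for MYEOV, 0.77 for LTO1, 1.47 for ANO1, 0.49 for FADD, 0.83 for CTTN and -0.50 for SHANK2. The genes closest to FGF19 in pattern were picked for that pattern, so their values are a description without a test. The difference was -1.09 for ZNF227, -0.33 for HSPA14, -1.48 for EDN1, -0.88 for PPRC1 and -0.88 for ODF2. It was -0.82 for KIF22, -1.33 for UTP18, -0.72 for TMPO and -0.65 for SYMPK. For IGF2, below the filter on low counts in SW948, it was -4.43. Outside the gene counts, reads with more than 1 alignment made up 26.0% ± 0.452 of the reads in treated SW948 and 22.8% ± 0.734 in SW948 DMSO (SD, n = 4), with no overlap.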

How the results depend on the processing

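No total of called genes in a comparison moved by over 1.5 times under any alternative run, but with plain library totals the genes that rose in SW948 went from 4865 to 3145. List counts that moved that far are given with the lists. Leaving out 1 library at a time, the calls ranged from 5560 to 7911 in HT55, from 9686 to 10294 in SW948, from 6762 to 7450 for the interaction, from 9778 to 10507 between the lines in DMSO and from 10528 to 10837 in itraconazole. The main fits did not treat the replicate numbers as pairs. Same-numbered libraries of a line correlated at -0.025 to 0.116 after group means were taken off, and 3 of 8 correlated best with their own number. The highest value in each line was that of replicate 3, at 0.116 in HT55 and 0.104 in SW948. Whether the numbers mark pairs was not tested. With the replicate number as a block the calls were 6300, 9973, 7155, 10075 and 10728 in the same order. Over 120 single-gene values and 1708 alternatives, 1614 kept direction and side of the threshold, 42 lost the call, 25 gained it and 27 turned sign, and the cause was not tested.

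Under every alternative run FGF19 kept its direction, at -3.21 to -2.82 in HT55 and 2.10 to 2.51 in SW948, and the calls of FGFR4 in both lines held. With plain library totals values turned to -0.32 for FGFR3, -0.20 for ABCC4, -0.050 for MYEOV, -0.24 for HSPA14, -0.13 for TMPO and -0.038 for SYMPK in SW948. In HT55 they turned to -0.038 for PTPN11, -0.049 for HNF4A, -0.14 for HSD17B4, -0.053 for TESMIN, -0.15 for CTTN and -0.083 for SHANK2. Without a filter FGFR3 in SW948 was at -0.013 and CTTN in HT55 at -3.3e-06, and with the block CTTN in HT55 was at -0.0092. Leaving out libraries, FGFR3 in SW948 ranged from -0.060 to 0.072, HSD17B4 in HT55 from -0.059 to 0.098, FADD from -0.11 to 0.037 and CTTN from -0.086 to 0.10. The NR1H4 difference ranged from -0.0646 to 0.129 CPM in SW948, below 0 without replicate 1 of either group, and from 0 to 0.0341 CPM in HT55, where it was 0 without replicate 2 of itraconazole. Depth limits KLB, NR1H4 and SLC51A throughout and SLC51B in SW948.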
